A study of Mus musculus with 16 samples.

Results

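Glycine receptors are chloride channels that open when glycine binds. They are built from alpha subunits (genes Glra1 to Glra4), which carry the ligand site, and the beta subunit (Glrb), which is held at the synapse by gephyrin (Gphn), a scaffold protein that also serves GABA-A receptors and the synthesis of the molybdenum cofactor. In the retina, glycine is released mainly by amacrine cells onto ganglion, bipolar and other amacrine cells. The RNA of these 5 subunit genes and of gephyrin was followed here in ribosome-bound and total RNA of the mouse retina. The genes were found by symbol in both count tables, and all 6 were present among 47451 symbols, with 16 transcript rows in all. The transcript with the highest mean count over the 16 libraries stands for its gene.

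The libraries came from retinas of mice at postnatal day 60. All mice carried Opn4-Cre, a recombinase expressed from the melanopsin gene, which marks intrinsically photosensitive retinal ganglion cells (ipRGCs). In the Rpl22-HA mice Cre switches on an HA-tagged ribosomal protein, so that an antibody to HA pulls down ribosomes and their mRNA from these cells (translating ribosome affinity purification). The study's methods state that some cones also carry the tag. The first table holds HA immunoprecipitates (IPs) and the lysate they were taken from (input, 1.5% of the lysate) for Opn4-Cre; Rpl22-HA retinas and for Opn4-Cre retinas with no tagged ribosome, called tagged and untagged here, with 2 libraries in each of the 4 groups. In the second table, each library is an HA IP of Opn4-Cre; Rpl22-HA retina. The 4 control mice are wild-type for Brn3b. The 4 Brn3bcKO mice are homozygous for a conditional Brn3b allele (Brn3bcKO-AP), which Cre deletes in the same cells. BRN3B (gene Pou4f2) is a transcription factor of retinal ganglion cells (RGCs), and the study describes its excision as incomplete.

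Totals ran from 2332612 to 14512132 counts in the first table, where untagged input replicate 1 was the shallowest, and from 12994498 to 20350881 in the second. The label of the tagged IPs was checked on ipRGC markers. Their summed level was 293 to 317 CPM (counts scaled to library size, with TMM factors) in the tagged IPs and 10.7 to 11.0 in their inputs. Cone markers summed to 6893 to 8481 CPM in the same IPs and to 883 to 896 in the inputs, so the tagged IPs hold RNA of both cell types. The untagged libraries are labelled as pooled from both sexes, but Y-linked counts were at most 0.669 CPM there against 15.7 to 29.1 in the tagged libraries. The tag and the sex of the mice therefore cannot be told apart in any comparison of tagged with untagged retina, and Glra2 and Glra4 are X-linked. In the second table the Y-linked counts matched the sex label in 8 of 8 libraries. Pou4f2, the deleted gene, was at 36.8, 44.7, 53.6 and 64.2 CPM in control IPs and at 18.8, 24.9, 33.8 and 34.0 CPM in Brn3bcKO IPs. The groups did not overlap, and the fitted change was -0.83 ± 0.22 (log2, SE, n = 4 per group; edgeR quasi-likelihood adjusted p = 0.0852). The 10 pan-RGC markers, which include Pou4f2, had a median change of -0.78, so that deletion of the gene and a lower share of RGC RNA in the IPs cannot be told apart from this value. By in situ hybridization the study reports lower Brn3b mRNA in single ipRGCs of Brn3bcKO retinas.

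All positions are on GRCm38 (mm10) from the GENCODE M21 annotation, in which all 16 transcript rows were found. The Glrb transcript lies at chr3:80843599-80913660 on the minus strand, with 10 exons. The Gphn transcript lies at chr12:78226653-78684767 on the plus strand, with 23 exons. Glra1 lies at chr11:55514238-55608198 on the minus strand, Glra2 at chrX:165129017-165327393 on the minus strand and Glra3 at chr8:55940509-56130070 on the plus strand. These 5 transcripts are annotated as protein-coding, whereas the Glra4 row with the highest count, at chrX:136767005-136780141 on the minus strand, is annotated as a retained intron. Some rows of one gene had counts close to each other and others did not. Glrb-201, which stands for the gene, averaged 557 counts over the 16 libraries and Glrb-204, annotated for nonsense-mediated decay, 535, while the other 4 Glrb rows averaged 0.5 to 90.4. Gphn-202 averaged 305 and Gphn-201 302, and Glra3-201 averaged 55.4 against 4.56 for Glra3-202. Rows of one gene that share exons cannot be taken as independent measurements. The exons of the Glra1 transcript share 141 bases with Gm12236, an antisense gene, which had a count of 0 in all 16 libraries.

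The promoters of 5 members are given by RefSeq (GRCm38.p6), as 300 bases from 250 before to 50 after the start of the gene. Those of the beta subunit, gephyrin, Glra2 and Glra3 are shown. The dinucleotide CG, which reads the same on both strands, is in capitals.
Glrb: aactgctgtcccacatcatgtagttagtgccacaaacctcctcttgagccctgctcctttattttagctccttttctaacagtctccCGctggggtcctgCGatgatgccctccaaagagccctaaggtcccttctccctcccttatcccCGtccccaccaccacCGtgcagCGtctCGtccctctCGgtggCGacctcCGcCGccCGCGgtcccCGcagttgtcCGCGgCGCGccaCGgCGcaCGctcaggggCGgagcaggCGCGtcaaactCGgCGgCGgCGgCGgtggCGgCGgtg
Gphn: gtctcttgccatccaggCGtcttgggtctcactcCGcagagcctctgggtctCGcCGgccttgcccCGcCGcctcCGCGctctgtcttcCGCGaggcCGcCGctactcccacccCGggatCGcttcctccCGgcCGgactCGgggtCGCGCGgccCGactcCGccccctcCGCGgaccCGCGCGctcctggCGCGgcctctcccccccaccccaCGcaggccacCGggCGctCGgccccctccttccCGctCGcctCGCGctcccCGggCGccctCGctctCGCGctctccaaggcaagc
Glra2: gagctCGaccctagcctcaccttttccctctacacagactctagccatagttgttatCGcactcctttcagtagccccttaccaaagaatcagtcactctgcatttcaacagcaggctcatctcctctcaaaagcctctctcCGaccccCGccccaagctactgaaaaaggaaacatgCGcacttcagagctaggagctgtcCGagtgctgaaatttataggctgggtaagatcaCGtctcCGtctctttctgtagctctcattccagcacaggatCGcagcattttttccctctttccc
Glra3: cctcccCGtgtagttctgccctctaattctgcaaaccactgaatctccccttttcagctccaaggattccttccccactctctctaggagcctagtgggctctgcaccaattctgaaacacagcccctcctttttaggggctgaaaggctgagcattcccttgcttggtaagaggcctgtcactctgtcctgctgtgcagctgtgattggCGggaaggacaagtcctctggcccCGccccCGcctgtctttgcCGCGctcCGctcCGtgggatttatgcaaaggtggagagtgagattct
The windows are chr3:80913611-80913910 on the minus strand for Glrb, chr12:78226405-78226704 on the plus strand for Gphn, chrX:165327344-165327643 on the minus strand for Glra2 and chr8:55940168-55940467 on the plus strand for Glra3. The Glrb window held 30 CG and the Gphn window 42, against 9 for Glra2, 8 for Glra3 and 3 for the Glra4 window, which is not shown. Over all 32851 promoters of this length, 94.6% held CG at least once, the median was 7, and 11.7% held as many as Glrb and 3.03% as many as Gphn. The RefSeq start lies 420 bases from the annotated start of the Glra4 transcript, 91 from that of Glra3, 2 from that of Gphn and 0 from those of Glrb and Glra2. These counts describe the sequences and were set against no measure of transcription.

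Levels of different genes were compared per kilobase of the transcript, with 1 row for each gene. The 3 Glra1 rows averaged 72, 64.8 and 60.5 counts, while Glra2 has 1 row. The order of the genes therefore also depends on how reads shared by rows were counted, which is not known here. In the tagged IPs, Glrb was at 16.4 ± 2.13 CPM per kb (SD, n = 2), Gphn at 8.39 ± 0.62, Glra2 at 1.75 ± 0.45, Glra1 at 1.44 ± 0.037 and Glra3 at 0.347 ± 0.012. The neighbours Glra2 and Glra1 overlapped in this order, at 1.43 to 2.07 and 1.42 to 1.47 CPM per kb, and the other neighbours among these did not. The same order of mean levels was found in both sets of inputs and in the control IPs. In the control IPs Glrb (9.69 to 29.7 CPM per kb) overlapped Gphn (8.49 to 10.5), and Glra2 (1.96 to 3.16) overlapped Glra1 (1.30 to 2.10). The order differed in the other groups. In the untagged IPs Gphn, at 4.58 to 4.89 CPM per kb, stood above Glrb, at 2.96 to 4.13. Glra1 also had a higher mean than Glra2 there, with overlapping libraries. In the Brn3bcKO IPs Glra1, at 2.91 to 4.98 CPM per kb, stood above Glra2, at 1.21 to 2.04. Glra4 was close to the limit of detection in every library. Its raw counts were 0 to 8, with 0 in 4 of the 16 libraries, and 0 counts allow up to 0.155 to 1.23 CPM in those libraries (3 counts, counting error only). It did not pass the filter on low counts and was not tested.

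Which members are enriched in RNA bound to tagged ribosomes was asked by comparing the tagged IPs with their inputs. Of the 5 members tested, 2 rose, Glrb and Gphn, and 2 fell, Glra2 and Glra3. Of 14099 genes tested, 39.0% were called in this comparison (26.9% higher and 12.1% lower), so the number of members called says little by itself. The median change of the members was -0.77 on the log2 scale and that of all genes 0.21. In bulk RNA of this kind, more labelled cells and more RNA per cell cannot be told apart.

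**Figure D1:**
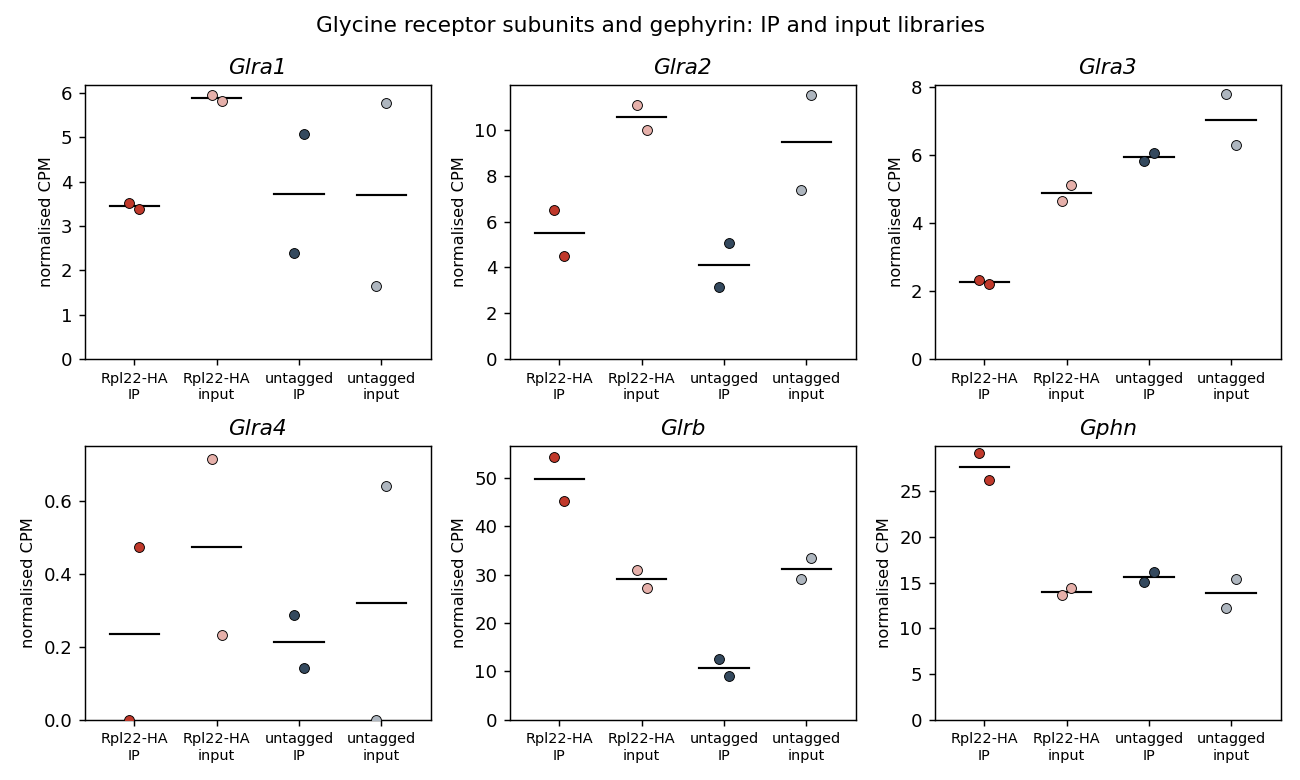
Normalised CPM (y axis, linear, each panel with its own range) of the 6 members in the 4 groups of the first table. Each point is 1 library and each line the mean of 2 libraries. Glrb and Gphn are highest in the tagged IPs, Glra3 is lowest there, and Glrb is lowest in the untagged IPs.

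Glrb, the beta subunit, was at 54.3 and 45.2 CPM in tagged IPs and at 31.0 and 27.2 CPM in their inputs. Both IPs were above both inputs (in this comparison 75.3% of genes did not overlap between the groups, in either direction), with a fitted change of 0.77 ± 0.18 (log2, SE, n = 2 per group), or 1.71-fold (edgeR quasi-likelihood adjusted p = 0.00329). In the untagged retinas the order was turned, with 12.5 and 8.95 CPM in the IPs and 29.0 and 33.4 CPM in the inputs. This was a fall by 1.57 ± 0.21 (log2, SE; edgeR adjusted p = 7.10e-06), in a comparison in which 54.9% of genes were called, 29.4% higher and 25.5% lower, and in which 73.5% did not overlap between the groups. The inputs of tagged and untagged retinas lay close to each other, at 29.1 ± 2.71 and 31.2 ± 3.05 CPM (SD, n = 2 each). Without tagged IP replicate 1 the rise over the input was 0.45 (adjusted p = 0.177), and without tagged input replicate 2 it was 0.69 (adjusted p = 0.0745). The fall in the untagged IPs kept its call in all 15 alternatives that were run. The rise was not called in every isoform row. Glrb-204 was at 0.81 ± 0.19 and passed (edgeR adjusted p = 0.00243). The protein-coding rows Glrb-206 and Glrb-202 did not pass. Glrb-206 was at 0.56 ± 0.29 with both IPs above both inputs (edgeR adjusted p = 0.153), and Glrb-202 at 0.14 ± 0.34 with overlapping libraries (edgeR adjusted p = 0.776).

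Gphn, the scaffold, was at 29.1 and 26.2 CPM in tagged IPs and at 13.6 and 14.4 CPM in their inputs. The groups did not overlap, and the rise of 0.98 ± 0.18 (log2, SE), or 1.98-fold, passed the test (edgeR adjusted p = 0.000518). In the untagged retinas Gphn was at 15.1 and 16.1 CPM in the IPs and at 12.3 and 15.4 CPM in the inputs, a difference of 0.13 ± 0.20 that did not pass (edgeR adjusted p = 0.604). Its tagged IPs stood apart from the other 6 libraries, which lay between 12.3 and 16.1 CPM. Leaving out any 1 library did not end the call of the rise in the tagged IPs.

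Glra2, an alpha subunit that is prominent early in development, was at 6.51 and 4.49 CPM in tagged IPs and at 11.1 and 9.99 CPM in their inputs. It fell by 0.94 ± 0.29 (log2, SE; edgeR adjusted p = 0.0166). It also fell in the untagged retinas, with 3.15 and 5.07 CPM in the IPs and 7.36 and 11.5 CPM in the inputs, by 1.26 ± 0.31 (edgeR adjusted p = 0.00281). In both genotypes the IPs were below the inputs. These calls depended on single libraries. The adjusted p in the tagged retinas was 0.0996 without tagged IP replicate 2, 0.130 without tagged input replicate 1 and 0.0648 without tagged input replicate 2, and in the untagged retinas the change was -0.79 (adjusted p = 0.213) without untagged input replicate 2.

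Glra3, an alpha subunit that in mice also serves spinal pain circuits, was at 2.31 and 2.21 CPM in tagged IPs and at 4.65 and 5.11 CPM in their inputs. It fell by 1.11 ± 0.30 (log2, SE; edgeR adjusted p = 0.00859), and the adjusted p was 0.0800 without tagged input replicate 2. In the untagged retinas it was at 5.83 and 6.06 CPM in the IPs and at 7.77 and 6.29 CPM in the inputs, a difference of -0.20 ± 0.29 that did not pass (edgeR adjusted p = 0.594). The 2 tagged IPs were the lowest of the 8 libraries.

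Glra1, the main alpha subunit of adult spinal cord and brainstem, was at 3.51 and 3.39 CPM in tagged IPs and at 5.97 and 5.81 CPM in their inputs. The groups did not overlap. The difference of -0.77 ± 0.39 (log2, SE) did not pass (edgeR adjusted p = 0.136), and it passed in 3 of 14 alternatives. These were the lysate as a replicate block (-0.77, adjusted p = 0.0468), no filter on low counts (-0.87, adjusted p = 0.0446) and a fit of these 2 groups alone (-0.95, adjusted p = 0.00604). In the untagged retinas the libraries ranged widely, at 2.39 and 5.07 CPM in the IPs and at 1.64 and 5.77 CPM in the inputs, where the lowest value rests on 4 counts. The difference there was -0.20 ± 0.42 (edgeR adjusted p = 0.710).

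The enrichment in tagged retinas was then set against that in untagged retinas, which measures what binds to the beads without a tag. In this difference of differences 44.6% of genes were called, 24.2% higher and 20.4% lower. Glrb was higher by 2.34 ± 0.28 (log2, SE), or 5.07-fold (edgeR adjusted p = 4.84e-06), and kept this call in all 18 alternatives that were run. Most of this difference came from the untagged IPs, where Glrb lay below its input. Gphn was higher by 0.85 ± 0.27, or 1.80-fold (edgeR adjusted p = 0.0214). Its call was lost in 9 of 18 alternatives, namely with DESeq2 (adjusted p = 0.0830), with no filter on low counts (adjusted p = 0.0910), with a fold threshold and without any 1 of 6 libraries, with adjusted p from 0.0649 to 0.203. Those 6 were both tagged IPs, both tagged inputs, untagged IP replicate 1 and untagged input replicate 2. Glra3 (-0.91 ± 0.42, adjusted p = 0.0929), Glra1 (-0.56 ± 0.57, adjusted p = 0.458) and Glra2 (0.32 ± 0.42, adjusted p = 0.578) did not pass (edgeR). Glra3 passed without untagged IP replicate 1 (-1.11, adjusted p = 0.0389).

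**Figure D2:**
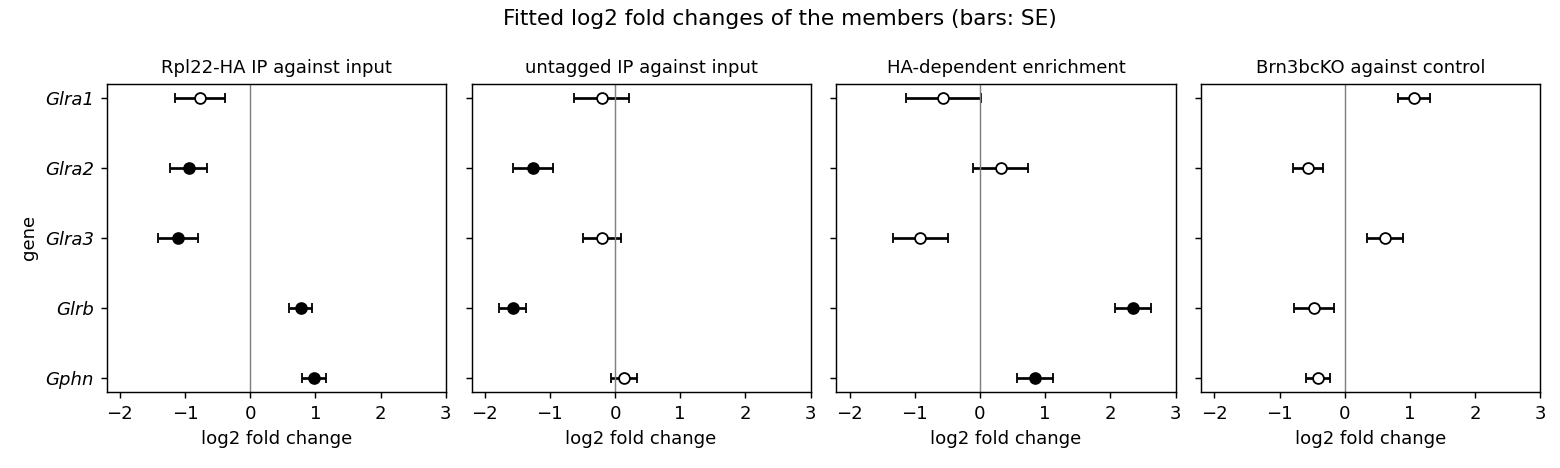
Fitted log2 fold changes (x axis) of the 5 members that were tested, with bars of 1 SE, in the 4 comparisons. Filled points passed an adjusted p of 0.05 and open points did not. Glrb lies at 0.77 in tagged and -1.57 in untagged retina, and Glra1 is the member farthest to the right in Brn3bcKO IPs, at 1.07.

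The genes around the receptor were then counted in the same comparison. Over all genes tested, 26.9% rose and 12.1% fell in it, which is the background for each list counted in this comparison. Of 16 partners of gephyrin and the receptor, 10 rose in the tagged IPs and none fell, with a median of 0.55 against 0.21 over all genes. Kif5a, a kinesin heavy chain of neurons, was at 113 ± 10.3 CPM in the IPs and 26.9 ± 1.67 CPM in the inputs (SD, n = 2 each), a change of 2.08 ± 0.17 (log2, SE; edgeR adjusted p = 6.33e-08). Kif5c, a further kinesin heavy chain, changed by 1.26 ± 0.17 (edgeR adjusted p = 2.06e-05). Against the untagged retinas 10 partners were higher and 1, Nbea, was lower, where 24.2% of all genes were higher and 20.4% lower. Nbea encodes neurobeachin, which takes part in receptor trafficking. It was at 46.2 ± 5.09 CPM in tagged IPs and at 114 ± 20.7 CPM in the untagged IPs, above the inputs in both. Kif5a (0.95 ± 0.24, adjusted p = 0.00511) and Kif5c (0.71 ± 0.24, adjusted p = 0.0283) passed there (edgeR).

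Of 5 genes of glycine transport and release that were tested, 2 fell in the tagged IPs and none rose. Both that fell, Slc32a1 and Slc6a9, are also in the list of amacrine markers. Slc32a1, the vesicular transporter of glycine and GABA, was at 4.53 ± 0.717 CPM in the IPs and 52.5 ± 2.34 CPM in the inputs (SD, n = 2 each), a fall by 3.53 ± 0.19 (log2, SE; edgeR adjusted p = 7.13e-10). Slc6a9, the glycine transporter GLYT1 of amacrine cells, was at 17.9 ± 0.268 and 125 ± 1.84 CPM, a fall by 2.80 ± 0.17 (edgeR adjusted p = 1.81e-09). Both fell in the untagged IPs as well, Slc32a1 by 3.01 ± 0.19 (edgeR adjusted p = 1.60e-09) and Slc6a9 by 1.55 ± 0.16 (edgeR adjusted p = 4.75e-07). The difference between tagged and untagged retinas did not pass for Slc32a1 (-0.52 ± 0.27, adjusted p = 0.135) and passed for Slc6a9 (-1.25 ± 0.22, adjusted p = 0.000310; edgeR). Slc6a5, the neuronal glycine transporter GLYT2, was at -0.56 ± 0.32 in the tagged IPs (edgeR adjusted p = 0.185) and rose by 1.40 ± 0.32 in the untagged IPs (edgeR adjusted p = 0.00131). Slc12a5, the chloride exporter KCC2 that makes glycine inhibitory, was at 0.28 ± 0.15 in the tagged IPs (edgeR adjusted p = 0.149), and Slc12a2, the chloride importer NKCC1, at 0.38 ± 0.21 (edgeR adjusted p = 0.186). In the untagged IPs 2 of the 5 genes, Slc6a5 and Slc12a2, rose and 2 fell. Markers of the retinal cell classes that are not labelled were lower in the tagged IPs, as Glra2 and Glra3 were. This held for 8 of 8 rod, 7 of 7 bipolar, 6 of 6 Muller glia, 4 of 4 vascular and 4 of 5 microglia markers that were tested. Of the amacrine markers, 7 of 8 were lower, with a summed level of 135 to 141 CPM in the tagged IPs against 657 to 671 CPM in the inputs. Amacrine markers were lower in the untagged IPs as well, at 237 to 252 against 619 to 625 CPM, where Glra2 also fell and Glra3 did not pass. Other classes were lower there too, with 6 of 8 rod, 6 of 6 Muller glia and 4 of 7 bipolar markers called. So were 2 of 4 vascular and 4 of 5 microglia markers, while 2 bipolar and 1 microglia marker were higher. In the difference between tagged and untagged retinas, 4 of 8 rod and 5 of 8 amacrine markers were lower. So were 7 of 7 bipolar and 6 of 6 Muller glia markers, with 2 of 4 vascular and 1 of 5 microglia. The part of the unlabelled cells' RNA in the levels of the alpha subunits was not tested.

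Of 13 GABA-A receptor subunits tested, 3 rose and 4 fell in the tagged IPs, where 26.9% of all genes rose and 12.1% fell. Gabrg3 rose by 2.19 ± 0.30 (log2, SE; edgeR adjusted p = 2.06e-05), and the rho subunits Gabrr1 and Gabrr2, known from bipolar cells, fell by 2.79 ± 0.26 (edgeR adjusted p = 2.62e-07) and by 2.10 ± 0.23 (edgeR adjusted p = 2.49e-06). Of 5 genes of glycine synthesis and cleavage, 2 rose and 2 fell. Gldc, the decarboxylase of the cleavage system, fell by 2.10 ± 0.38 (edgeR adjusted p = 0.000335), and its partner Gcsh rose by 0.79 ± 0.17 (edgeR adjusted p = 0.00149), as did Dld, by 0.65 ± 0.17 (edgeR adjusted p = 0.00684). Of 4 genes of the molybdenum cofactor pathway, in which gephyrin carries out the last steps, Mocs2 rose by 0.94 ± 0.16 (edgeR adjusted p = 0.000221), Suox, an enzyme that needs the cofactor, fell by 0.96 ± 0.36 (edgeR adjusted p = 0.0483), and Mocs1 (-0.55 ± 0.40) and Mocs3 (0.38 ± 0.29) did not pass.

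**Figure D3:**
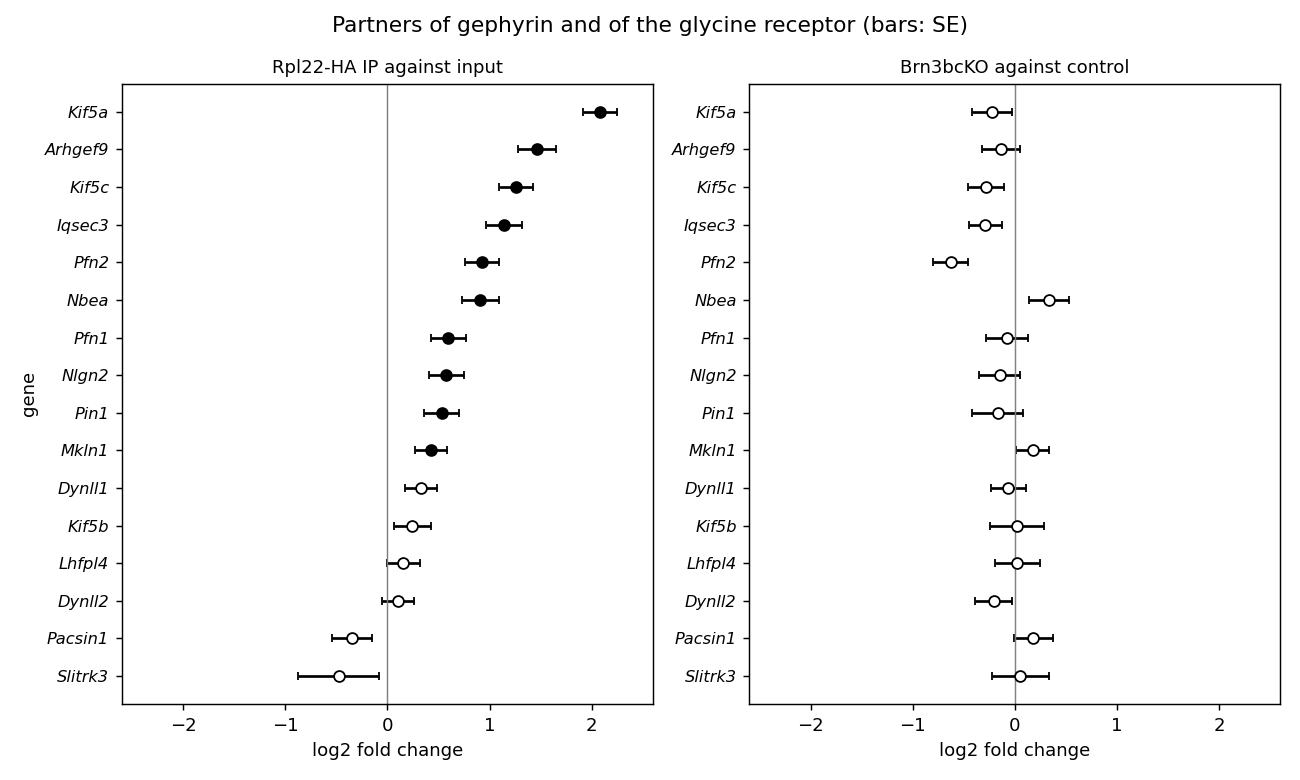
Fitted log2 fold changes (x axis) with bars of 1 SE for the 16 partners of gephyrin and the receptor, in Rpl22-HA IP against input (left) and in Brn3bcKO against control IP (right). Filled points passed an adjusted p of 0.05, which 10 did on the left and none on the right.

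Whether loss of BRN3B changes the receptor genes was asked by comparing Brn3bcKO with control IPs. None of the 5 members tested passed the adjusted test (edgeR quasi-likelihood), where 1.59% of 13927 genes did (0.682% higher and 0.905% lower). Unadjusted, 4 of 5 members had a p under 0.05, against 17.8% of all genes, with Glra1 and Glra3 above and Glra2 and Gphn below the control. DESeq2 and edgeR's likelihood ratio test each called 1 member, Glra1, but each also called more genes in all than the main fit (totals in the last paragraph). The median change of the members was -0.41 and that of all genes 0.05 (log2).

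**Figure D4:**
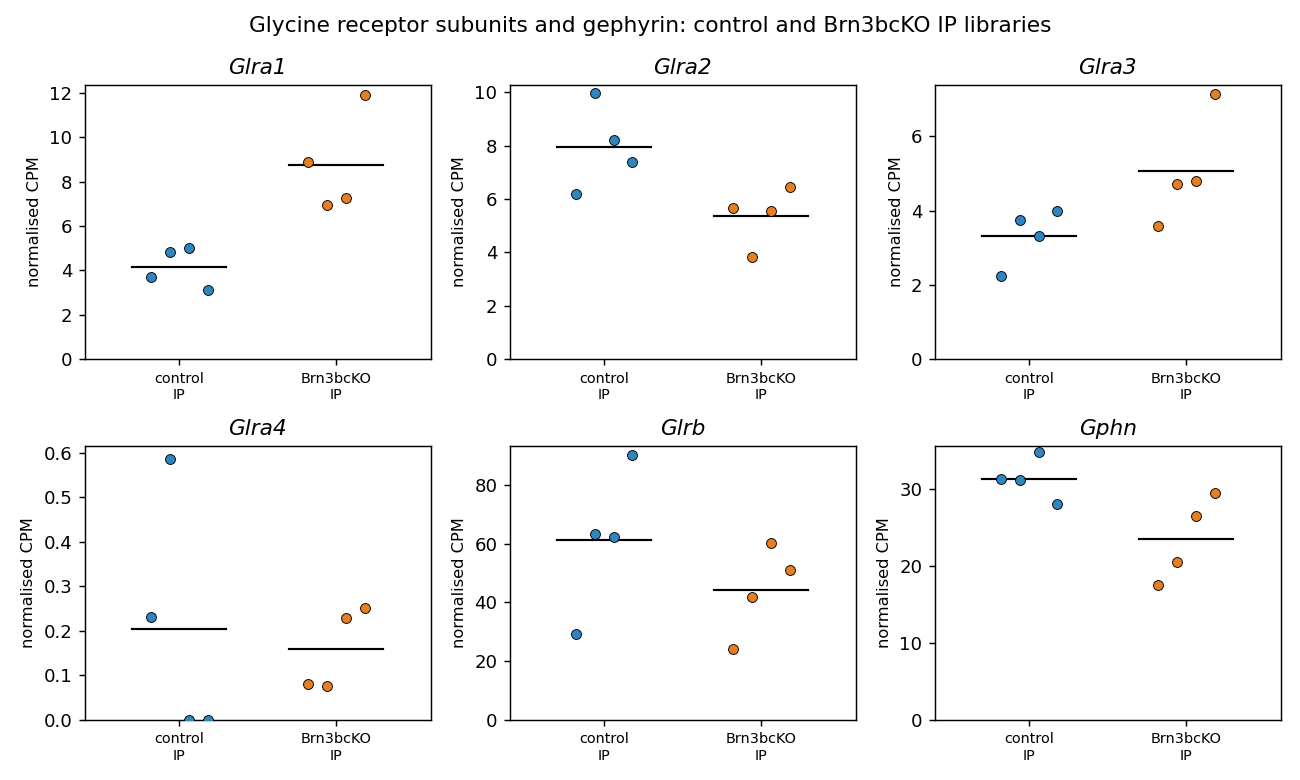
Normalised CPM (y axis, linear, each panel with its own range) of the 6 members in the control and Brn3bcKO IPs. Each point is 1 library, in the order of the replicate numbers, and each line the mean of 4 libraries. The groups do not overlap for Glra1 and overlap for the other 5.

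Glra1 was at 3.71, 4.83, 5.02 and 3.11 CPM in control IPs and at 8.86, 6.95, 7.24 and 11.9 CPM in Brn3bcKO IPs. Every Brn3bcKO library was above every control library, as for 10.5% of all genes in either direction. The means were 4.17 ± 0.91 and 8.74 ± 2.28 CPM (SD, n = 4 each), a fitted change of 1.07 ± 0.25 (log2, SE), or 2.09-fold, just short of the threshold (edgeR adjusted p = 0.0530). Over the alternatives the adjusted p ran from 0.000312 to 0.674, and 5 of 20 passed. The other Glra1 isoform rows, which share reads, changed by 1.02 ± 0.26 and 0.93 ± 0.27. The single female library was the highest in each group. Among the males, the range was 3.11 to 4.83 CPM in control and 6.95 to 8.86 CPM in Brn3bcKO IPs, and with sex as a covariate the change was 1.05 (edgeR adjusted p = 0.0505).

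Glra2 was at 6.18, 9.96, 8.22 and 7.39 CPM in control IPs and at 5.67, 3.81, 5.53 and 6.43 CPM in Brn3bcKO IPs. The groups overlapped in 1 pair of libraries, and the difference of -0.56 ± 0.23 (log2, SE) did not pass (edgeR adjusted p = 0.262). Glra1 and Glra2 thus lay on opposite sides of the control. Their raw counts were set against each other within each library, where scaling cancels, a ratio chosen after their values were seen and given without a test. Glra1 over Glra2 was 0.600, 0.485, 0.610 and 0.422 in control IPs and 1.56, 1.82, 1.31 and 1.85 in Brn3bcKO IPs. The Glra1 row had fewer counts than the Glra2 row in each control library and more in each Brn3bcKO library. Glra1 has 3 rows with close counts and Glra2 has 1, and transcript length was not allowed for here. Whether the ratio lies above or below 1 is therefore no measure of which subunit is higher. In the first table the ratio was 0.539 and 0.754 in the tagged IPs, 0.538 and 0.581 in their inputs, 0.758 and 1 in the untagged IPs and 0.222 and 0.500 in the untagged inputs. All 8 of these libraries were below the Brn3bcKO IPs.

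**Figure D5:**
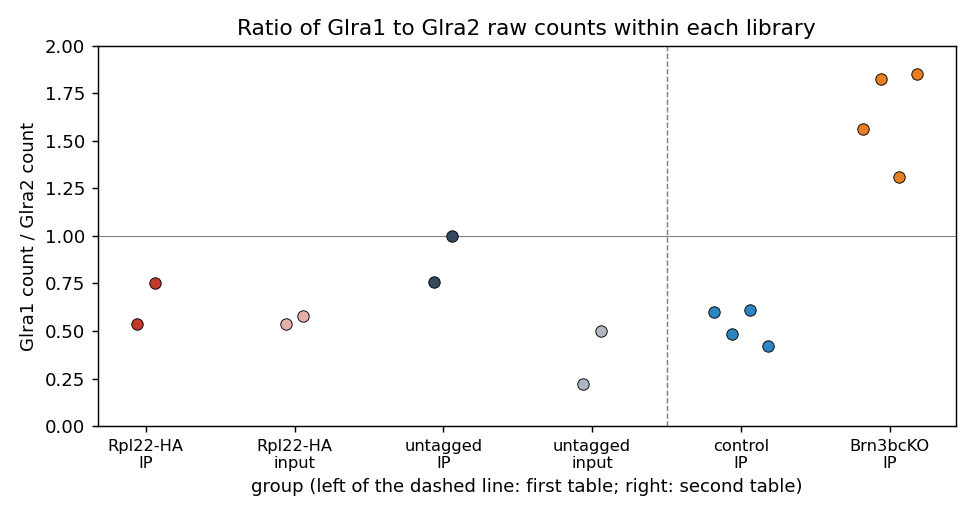
Ratio of Glra1 to Glra2 raw counts (y axis, linear) in each of the 16 libraries, by group. The 4 Brn3bcKO IPs lie between 1.31 and 1.85 and the 4 control IPs between 0.422 and 0.610. The horizontal line marks equal counts of the rows that stand for these genes, which is not the same as equal levels of the subunits.

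Glra3 was at 2.24, 3.74, 3.31 and 3.98 CPM in control IPs and at 3.59, 4.71, 4.79 and 7.14 CPM in Brn3bcKO IPs. The groups overlapped, and the difference of 0.61 ± 0.27 did not pass (edgeR adjusted p = 0.305). Gphn was at 31.2, 31.1, 34.7 and 28.0 CPM in control IPs and at 17.5, 20.4, 26.4 and 29.4 CPM in Brn3bcKO IPs. Only the highest Brn3bcKO library exceeded a control library, and the difference of -0.41 ± 0.18 did not pass (edgeR adjusted p = 0.305). Glrb spread widely between libraries of a group. It was at 29.3, 63.2, 62.4 and 90.1 CPM in control IPs and at 24.0, 41.7, 60.2 and 51.1 CPM in Brn3bcKO IPs, and the difference of -0.47 ± 0.31 did not pass (edgeR adjusted p = 0.510). Glrb over Gphn counts spread from 0.941 to 3.21 in control and from 1.37 to 2.28 in Brn3bcKO IPs, so the groups overlapped in this ratio too.

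The cell content of the second table's IPs differed between the groups. Cone markers summed to 3664 to 6219 CPM in control and 7136 to 10031 CPM in Brn3bcKO IPs, with 4 of 8 higher, and pan-RGC markers to 3793 to 5287 and 2255 to 3118 CPM, with 3 of 10 lower. The ipRGC markers summed to 291 to 428 and 173 to 235 CPM, with 1 of 6 lower. Rod markers summed to 5406 to 7633 and 7866 to 12562 CPM, with 0 of 8 called. Amacrine markers, at 158 to 225 and 220 to 234 CPM, overlapped between the groups, and 0 of 7 tested were called. Bipolar markers, at 143 to 188 and 180 to 275 CPM, overlapped too, with 1 of 7, Cabp5, higher. Muller glia markers, at 101 to 153 and 146 to 205 CPM, overlapped as well, with 0 of 6 called. The median changes were 0.48 for rod, 0.50 for amacrine, 0.34 for bipolar and 0.51 for Muller glia markers, against 0.05 for all genes (log2). The study counted fewer HA-labelled RGCs in Brn3bcKO retinas, with no significant difference in HA-labelled cones, while its melanopsin-labelled cells did not differ in number. For selected transcripts it adjusted the fold changes of ipRGC-enriched genes for the ratio of HA-labelled ipRGCs to cones. The values here carry no such adjustment. The part of these shifts in the members' values was not tested. Where the libraries were scaled on pan-RGC transcripts alone, the median of all genes moved to 1.04 (log2), Glra1 was at 2.00 (edgeR adjusted p = 0.000312), and Glra2, Glrb and Gphn turned to 0.38, 0.52 and 0.53. Where they were scaled on cone transcripts alone, the median of all genes moved to -0.82, Glra1 was at 0.15 (edgeR adjusted p = 0.674), and Glra3 turned to -0.31. Relative to the median of all genes, Glra1 was at 1.01, 0.96 and 0.97 under the main, pan-RGC and cone scalings, Glra3 at 0.56, 0.53 and 0.52, Gphn at -0.47, -0.51 and -0.47, Glrb at -0.52, -0.52 and -0.56, and Glra2 at -0.61, -0.66 and -0.66. A change of scaling moves all genes by nearly the same amount, and subtracting the median removes it. The closeness of these values therefore follows from the calculation and is no test of the shift in cell content.

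None of the 16 partners of gephyrin passed in Brn3bcKO against control IPs, nor did any of the 5 genes of glycine transport and release, the 5 of glycine synthesis and cleavage or the 4 of the molybdenum cofactor pathway. Among the partners, Pfn2, an actin-binding profilin, had the smallest p, at -0.63 ± 0.17 (log2, SE; edgeR adjusted p = 0.0888). Slc32a1 was at 3.47 ± 1.21 CPM in control and 6.57 ± 0.402 CPM in Brn3bcKO IPs (SD, n = 4 each), a difference of 0.93 ± 0.26 that did not pass (edgeR adjusted p = 0.102), and Slc6a9 was at 0.58 ± 0.20 (edgeR adjusted p = 0.172). Of 13 GABA-A receptor subunits, 2 fell and none rose, where 0.905% of all genes fell and 0.682% rose. Gabrg3 was at 16.2 ± 2.88 CPM in control and 4.81 ± 1.38 CPM in Brn3bcKO IPs, a fall by 1.73 ± 0.24 (edgeR adjusted p = 0.00343). Gabrg1 was at 6.84 ± 2.20 and 2.32 ± 1.00 CPM, a fall by 1.54 ± 0.35 (edgeR adjusted p = 0.0470). Both encode gamma subunits of the GABA-A receptor.

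The genes whose levels ran most like those of a member were taken over the 8 libraries of each table as a description. The libraries of a group share their genotype and preparation, so a high correlation is common. In the first table Glrb was most like Stk32c (Pearson r = 0.996 among 9954 genes) and Gphn most like Kcmf1 (r = 0.994). In the second table Glrb was most like Vps4b (r = 0.992 among 10981 genes), Gphn most like Frmd3 (r = 0.975), Glra1 most like Syne3 (r = 0.978), Glra2 most like March5 (r = 0.947) and Glra3 most like 9230114K14Rik (r = 0.981). In the first table Gabrd, a GABA-A subunit, was the third most like Glra2 (r = 0.965). No member was among the 3 most like another member in either table.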

How the data were processed

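RNA of HA IPs and inputs was measured in 16 libraries in 2 tables, and no sample was left out. Per the study's methods, the authors prepared libraries by Smart-seq3 with paired reads of 37 bp, which the Smart-seq3 pipeline aligned to mm10, the build also named in the submitters' processing notes. The values used are the raw counts per Ensembl transcript that the authors deposited, whole numbers with no normalization. The strand setting and the annotation of the counting are not given in the sources used here. In each table, 17 transcripts listed under 2 symbols were kept once.

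Groups and replicates came from the sample labels. Counts were filtered with filterByExpr, scaled by TMM and tested with the quasi-likelihood test of edgeR 4.0.16 in R 4.3.3 over all 45189 transcripts of the first table that passed and 43975 of the second (residual degrees of freedom 4 and 6). Benjamini-Hochberg adjustment ran over all of them, with a threshold of 0.05, and a gene was read from its transcript with the highest mean count. The study tested only transcripts higher in the tagged than in the untagged IPs, which is an alternative here because members below that level would have no test. CPM are given as mean ± SD and log2 changes with their SE. The script was tested on simulated data. DESeq2 1.42.0, RLE scaling, no filter, the likelihood ratio test, other transcripts for a gene, covariates, blocks, other scalings and leaving out each library were tried as alternatives. IP and input with the same number come from one lysate by the protocol, so these are paired (correlations of their deviations 0.0242 and 0.0713). The main fit has no block. The study gives its replicates as biological, while the first table's labels name pools of both sexes.

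The members and gene lists were chosen with earlier results of these data known. Named beside the members are, for each list, up to 3 genes with the smallest p in Rpl22-HA IPs against inputs and in Brn3bcKO against control, the genes most like a member (log2 CPM, prior count 2, mean count of at least 50), markers that a result turns on, and single further list members chosen after their values were seen. The values of 1 gene that this rule names are not reported here.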

Additional observations from a re-analysis of the deposited data

Results flagged for a closer look

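Enrichment over the input differed between tagged and untagged retinas for 2 members. For Glrb the difference was 2.34 (log2), between 0.77 in Rpl22-HA and -1.57 in untagged retinas, and every tagged library pair rose while every untagged pair fell. For Gphn it was 0.85, between 0.98 and 0.13. Tag and sex cannot be told apart in both. Of 12 member-by-group sets of 4 libraries in the second table, 0 held a library far enough from the others to stand out by Dixon's criterion.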

How the results depend on the processing

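Over 333 alternative values for single members, 290 kept direction and side of the threshold, 19 lost a call, 13 gained one and 11 changed sign. The number of members called, 4 in Rpl22-HA IPs against inputs, was 5, with Glra1 added, with no filter on low counts, in a fit of these 2 groups alone and with the lysate block. It was 1 with a log2 fold above 1 required as well and 1 to 3 with 1 library left out (1 without tagged input replicate 2). In untagged IPs against inputs it was 2, and 1 to 2 with 1 library left out. In the difference between tagged and untagged retinas it was 2, and it was 1 with DESeq2, with no filter on low counts and with the fold threshold, and 1 to 2 with 1 library left out. In Brn3bcKO against control IPs it was 0, and 0 in each fit with 1 library left out. It was 1 (Glra1) with DESeq2, with no filter, with the likelihood ratio test and with a replicate block by number (Glra1 at 1.05, adjusted p = 0.0472). It was 3 with scaling on pan-RGC transcripts (Glra1, Glra3 and Gphn, all higher) and 3 with scaling on cone transcripts (Glra2, Glrb and Gphn, all lower). These scalings move all genes, and 11600 and 7817 genes were called under them, against 221. Whether the replicate numbers of the second table pair its samples was not settled. Deviations of same-numbered libraries correlated at 0.321, 0.169, 0.0228 and -0.0206, 4 of 8 libraries correlated best with their own number, and the block raised the number of genes called to 652. The lysate block of the first table changed no call but that of Glra1 in Rpl22-HA IPs against inputs.

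Sign changes under pan-RGC scaling were Glra2 to 0.38, Glrb to 0.52 and Gphn to 0.53, and under cone scaling Glra3 to -0.31. The other sign changes came from leaving out 1 library and concerned values that passed in no fit. In untagged IPs against inputs, Glra1 ran from -0.97 to 1.24 (0.16 without untagged IP replicate 1 and 1.24 without untagged input replicate 2), and Gphn from -0.0033, without untagged input replicate 1, to 0.38. In the difference between tagged and untagged retinas, Glra2 ran from -0.14 to 0.63 (-0.12, -0.10 and -0.14 without tagged IP replicate 1, untagged IP replicate 1 and untagged input replicate 2), and Glra1 from -2.001, without untagged input replicate 2, to 0.031, without untagged IP replicate 2. The cause was not tested. Genes called fell from 221 to between 60 and 215 with 1 library of the second table left out. In the first table, where 5495, 7739 and 6293 genes were called, leaving out 1 library gave 3215 to 3614, 5196 to 7922 and 4395 to 6854. Glra1 and Glra3 had no test under the study's selection of transcripts, and the second row of Glra3 and both rows of Glra4 failed the filter. DESeq2 called 756 genes in Brn3bcKO against control, no filter 587 and the likelihood ratio test 640. Glra1, Glra2 and Glra3 rest on 4 to 237 counts a library and Glra4 on at most 8, which limits their precision.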
